A study of Mus musculus with 2 samples.

Results

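The 10 genes described here shape, coat or repair the surface membrane of the muscle fibre. They were taken by name: Bin1, Mtm1 and Dnm2 for the transverse tubules, Cav1, Cav2, Cav3, Cavin1 and Cavin4 for the caveolae, and Dysf and Trim72 for membrane repair. They are 10 of 15508 annotated genes with at least 1 read, and their transcript models number 116 of 72469 in replicate 1 and 81 of 88667 in replicate 2. RNA of whole gastrocnemius muscle from male B6CASTF1/J mice, an F1 hybrid strain, aged 36 days was sequenced as long reads in 2 libraries, each a biological replicate and each listed with 2 µg of RNA. The series has 1 group and no treatment, mutant or control. The labels give both animals the same donor entry, so nothing in them separates the replicates by litter or handling. The comparisons below set 1 library against the other. They have no replicate check and say nothing of a condition.

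Transverse tubules are inward folds of the fibre membrane that carry the action potential to the calcium stores. Bin1 (amphiphysin 2) bends membrane into such tubes, Mtm1 (myotubularin) removes a phosphate from phosphoinositide lipids, and Dnm2 (dynamin 2) is a GTPase that constricts and cuts membrane necks. In people, mutations of each of these genes cause centronuclear myopathy. Caveolae are small flask-shaped pits built from caveolins, which sit in the membrane, and cavins, which coat them from inside the cell. Dysferlin (Dysf) and Trim72 (MG53) act when the fibre membrane is torn, and loss of dysferlin causes a muscular dystrophy in people.

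The sequences that the splicing results turn on are given first, from the GENCODE M21 transcripts on mm10. Dnm2 has a pair of coding exons of 139 bases each, 1369 bases apart, which are used in place of each other. They are identical at 95 of 139 bases (68.3%), and capitals mark the 44 bases that differ.
Dnm2 first 139-base exon (chr9:21478899-21479037, plus strand): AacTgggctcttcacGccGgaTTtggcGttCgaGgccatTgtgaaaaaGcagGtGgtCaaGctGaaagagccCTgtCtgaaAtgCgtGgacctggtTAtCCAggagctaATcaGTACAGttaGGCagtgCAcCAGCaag
Dnm2 second 139-base exon (chr9:21480407-21480545, plus strand): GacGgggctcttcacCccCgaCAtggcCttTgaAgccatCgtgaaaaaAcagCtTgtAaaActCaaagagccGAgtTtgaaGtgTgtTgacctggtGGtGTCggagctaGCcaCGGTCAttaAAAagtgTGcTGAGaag
The next 2 are short coding exons of Dnm2 that the libraries included in part of the reads. Capitals mark the exon, and the lower-case letters are 18 bases of the neighbouring exon on each side in the named transcript, Dnm2-208 for the 30-base exon and Dnm2-211 for the 12-base exon. The coordinates are those of the exon.
Dnm2 30-base exon (chr9:21487047-21487076, plus strand): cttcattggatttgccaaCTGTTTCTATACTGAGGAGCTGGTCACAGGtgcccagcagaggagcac
Dnm2 12-base exon (chr9:21490658-21490669, plus strand): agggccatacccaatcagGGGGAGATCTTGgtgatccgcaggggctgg
For Dysf, 3 coding exons were optional in these reads and are shown in the same way, from Dysf-201, Dysf-204 and Dysf-215. Human work has tied the 63-base exon to a form of dysferlin that calpain can cleave.
Dysf 93-base exon (chr6:84064471-84064563, plus strand): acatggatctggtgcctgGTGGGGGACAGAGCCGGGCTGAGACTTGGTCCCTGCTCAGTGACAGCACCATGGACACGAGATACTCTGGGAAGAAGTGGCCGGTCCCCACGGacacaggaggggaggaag
Dysf 42-base exon (chr6:84096477-84096518, plus strand): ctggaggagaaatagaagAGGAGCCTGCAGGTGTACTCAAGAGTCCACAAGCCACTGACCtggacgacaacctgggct
Dysf 63-base exon (chr6:84157139-84157201, plus strand): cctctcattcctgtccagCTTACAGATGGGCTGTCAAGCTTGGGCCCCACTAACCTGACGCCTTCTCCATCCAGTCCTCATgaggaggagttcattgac
Cav1 is annotated with an upstream and an internal start codon, which begin the long and the short form of caveolin 1. The stretch from one to the other in Cav1-201 is 93 coding bases (31 codons) long, of which the first 30 bases lie in exon 1. Both ATG are in capitals, and the coordinates run over the intron between the exons.
Cav1 from start codon to start codon (chr6:17306450-17307946, plus strand): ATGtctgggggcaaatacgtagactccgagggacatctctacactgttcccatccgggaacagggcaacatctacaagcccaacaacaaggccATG

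Replicate 1 held 1106945 reads and replicate 2 held 1514119, of which 1036455 and 1374068 fell in annotated mouse genes. Levels are CPM, the count divided by the reads in annotated genes and multiplied by 1e6, so 3 reads, the limit that a count of 0 allows, are 2.89 and 2.18 CPM. A long read stands for 1 cDNA molecule, so levels are compared between genes without a division by transcript length. A read need not cover the whole molecule: most Dysf reads were short unspliced pieces, described below. An effect of transcript length on the counts was not tested. The length of the main spliced structure, the one with the most reads over both libraries among full-length classes (defined below), is given beside the level. The tissue label was checked against markers: 8 muscle fibre genes summed to 205185 and 188484 CPM. Markers of other cells were present too. Of 8 endothelial genes all had reads, summing to 68.5 and 93.9 CPM, and 6 adipocyte genes, all with reads, summed to 151 and 398 CPM. Egfl7 had 26.1 and 63.3 CPM of the endothelial sum. The other endothelial genes were at most at 8.68 CPM, and all but Cdh5 and Flt1 were higher in replicate 1. Fabp4 (76.2 and 246 CPM) and Cfd (55.0 and 116 CPM) made up most of the adipocyte sum. Plin1 (3 and 1 reads) and Lep (1 and 0) went the other way. Fibroblast genes (6 of 6 with reads) summed to 3305 and 870 CPM, smooth muscle and pericyte genes (6 of 6) to 259 and 132 CPM, Schwann cell genes (4 of 4) to 1470 and 507 CPM, immune genes (5 of 6, Ptprc at 0) to 129 and 85.9 CPM, and satellite cell genes (3 of 4, Pax7 at 0) to 26.1 and 11.6 CPM. The part of these cell types in the results below was not tested, and in whole tissue fewer cells of a type and less RNA per cell cannot be told apart.

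Bin1 was far above the other members. The 10 genes together had 1279 reads (1234 CPM) in replicate 1 and 1213 reads (883 CPM) in replicate 2, and Bin1 supplied 59.7% and 52.7% of them. Bin1 (ENSMUSG00000024381.16, chr18:32377230-32435737, plus strand, mm10) had 764 and 639 reads, or 737 and 465 CPM (601 ± 192, SD, n = 2), and ranked 113 and 228 among all genes. Its main spliced structure was 1944 bases long. All other members were below Bin1 in each library, at most at 87.8 CPM in replicate 1 (Cavin4) and 121 CPM in replicate 2 (Dysf).

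The other T-tubule genes were lower. Dnm2 (ENSMUSG00000033335.17, chr9:21424908-21507759, plus strand) had 53 and 35 reads, or 51.1 and 25.5 CPM (38.3 ± 18.1, SD, n = 2), with a main spliced structure of 3528 bases that shared its read sum with one of 3044 bases. Mtm1 (ENSMUSG00000031337.16, chrX:71210767-71315691, plus strand) had 8 and 9 reads, or 7.72 and 6.55 CPM (7.13 ± 0.826, SD, n = 2), with 3379 bases. Mtm1 was the lowest of the 10 by mean, and its range overlapped that of Trim72.

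Among the 5 caveola members the muscle caveolin and the muscle cavin had the highest means, while in replicate 2 Cavin1 was above Cavin4 when every model was counted. From full-length classes alone, over the same totals, Cavin4 was above Cavin1 in each library, at 85.9 and 40.8 CPM beside 45.3 and 16.0 CPM. Cav3, the caveolin of muscle fibres (ENSMUSG00000062694.7, chr6:112459505-112472872, plus strand, 1157 bases), had 84 and 120 reads, or 81.0 and 87.3 CPM (84.2 ± 4.45, SD, n = 2). Cavin4, a cavin of striated muscle (ENSMUSG00000028348.7, chr4:48663514-48673502, plus strand, 2054 bases), had 91 and 64 reads, or 87.8 and 46.6 CPM (67.2 ± 29.1, SD, n = 2). Cav3 differed least between the libraries of these 2, and their ranges overlapped. Cavin1, the general cavin that caveolae need in all cells (ENSMUSG00000004044.9, chr11:100956733-100970887, minus strand), had 75 and 72 reads, or 72.4 and 52.4 CPM (62.4 ± 14.1, SD, n = 2). Its main spliced structure, 658 bases long, was Cavin1-202, a transcript without coding sequence that is described below. Cav1, the caveolin of endothelial cells, fat cells and many others (ENSMUSG00000007655.16, chr6:17306335-17341452, plus strand, 2522 bases), had 80 and 56 reads, or 77.2 and 40.8 CPM (59.0 ± 25.8, SD, n = 2). Cav2, its partner (ENSMUSG00000000058.6, chr6:17281185-17289115, plus strand, 2733 bases), had 49 and 43 reads, or 47.3 and 31.3 CPM (39.3 ± 11.3, SD, n = 2). The endothelial and adipocyte marker sums are given above with their largest genes, and the share of those cells in the Cav1 and Cav2 reads was not tested.

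The repair genes were far apart when every model was counted, and not from full-length classes alone, where their ranges overlapped. Dysf, a calcium-binding protein of the fibre membrane (ENSMUSG00000033788.15, chr6:84008590-84211060, plus strand), had 65 and 166 reads, or 62.7 and 121 CPM (91.8 ± 41.1, SD, n = 2), and its main spliced structure, 6803 bases long, was the longest of the 10. Trim72, a muscle TRIM protein that gathers vesicles at a tear (ENSMUSG00000042828.12, chr7:128003949-128011033, plus strand, 2134 bases), had 10 and 9 reads, or 9.65 and 6.55 CPM (8.10 ± 2.19, SD, n = 2). By mean CPM the order of the 10 was Bin1, Dysf, Cav3, Cavin4, Cavin1, Cav1, Cav2, Dnm2, Trim72 and Mtm1. Neighbours in that order overlapped over the 2 libraries, except Bin1 with Dysf and Dnm2 with Trim72. Dysf held its second place only when every model was counted: from full-length classes alone, over the same totals, it had 16.4 and 5.82 CPM, and Trim72 had 6.75 and 2.91 CPM.

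**Figure D1:**
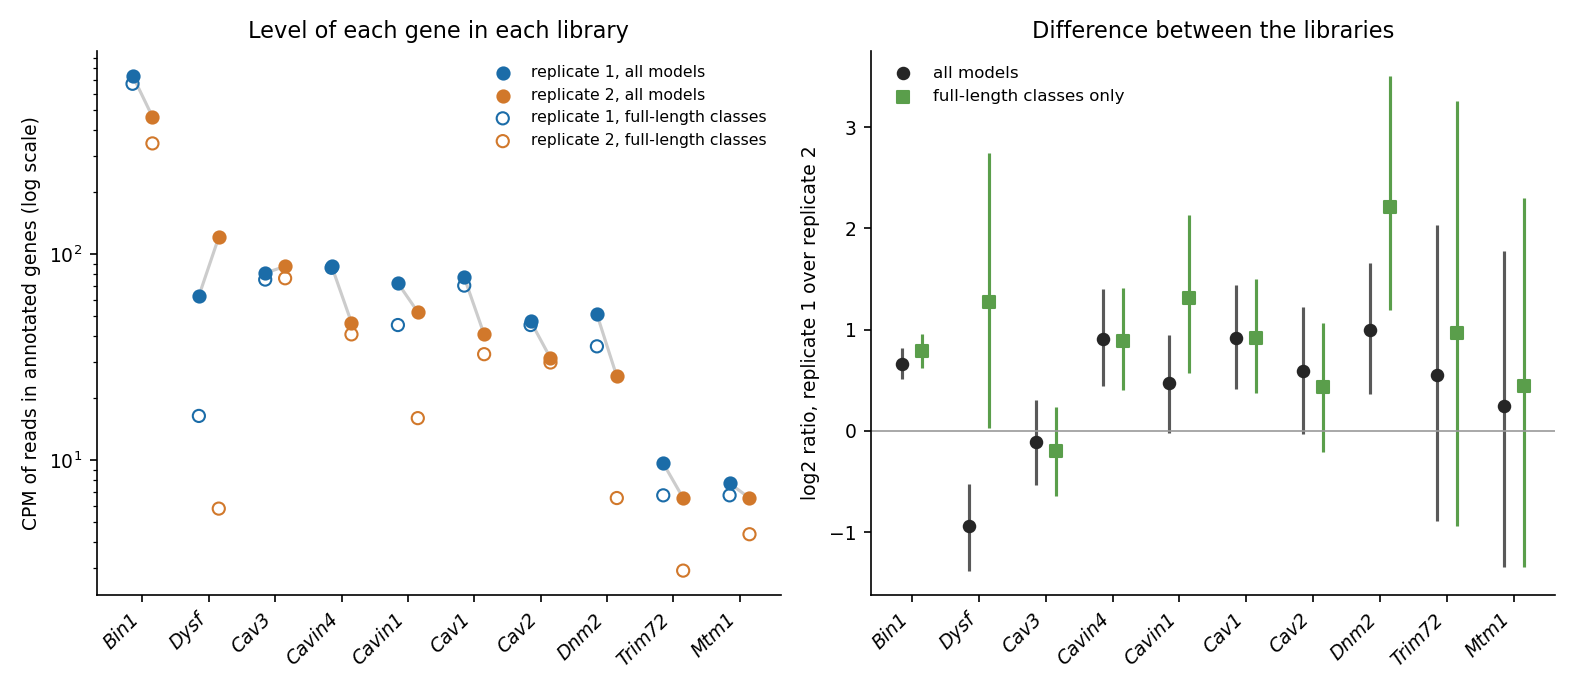
Left, CPM of each gene on a log scale in replicate 1 (blue) and replicate 2 (orange), from all models (filled points, joined by a line) and from full-length classes only (open points), both over the same totals. Right, the log2 ratio of replicate 1 over replicate 2 with its 95% exact interval, from all models (dark circles) and from full-length classes (green squares, over the totals of those classes). Bin1 lies at 737 and 465 CPM above all others, and Dysf changes sign between the 2 ways of counting, at -0.94 and 1.27.

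The libraries were compared gene by gene with a two-sided exact binomial test on the reads, adjusted over 8339 genes with at least 10 reads in sum (Benjamini-Hochberg). To be called, a gene needed a ratio of 2-fold or more after 0.5 reads were added to each count, and an adjusted p below 0.05. None of the 10 members was called, against 1555 of the 8339 genes (18.6%), 1075 with the higher level in replicate 1 (12.9%) and 480 with the higher level in replicate 2 (5.76%). The share of calls that were higher in replicate 1 was 69.1%, and it became 42.1% under TMM scaling and 40.8% under DESeq2 size factors, which lowered every log2 ratio by 0.26 and 0.27. At an unadjusted p under 0.05 stood 5 of the 10 members and 3312 genes (39.7%). The median log2 ratio of replicate 1 over replicate 2 was 0.57 over the 10 members and 0.28 over all genes tested.

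Those 5 members had an adjusted p under 0.05 in the exact binomial test while their ratio stayed under 2-fold. Bin1 had a log2 ratio of 0.66 (95% exact interval 0.51 to 0.82, adjusted p = 2.36e-16). Cavin4 had 0.91 (0.44 to 1.40, adjusted p = 6.64e-04) and Cav1 had 0.92 (0.41 to 1.44, adjusted p = 0.00161). Dnm2 had 1.00 (0.36 to 1.66, adjusted p = 0.00812), just under the threshold with the added reads and 2.01-fold without them. Dysf alone of the 5 was lower in replicate 1, at -0.94 (-1.38 to -0.52, adjusted p = 3.98e-05), and it was called under TMM and DESeq2 scaling (-1.19 and -1.21). Those scalings called 1453 and 1477 of the 8339 genes. The remaining members had adjusted p of 0.134 (Cavin1), 0.138 (Cav2), 0.655 (Trim72), 0.767 (Cav3) and 0.906 (Mtm1), and the interval for Mtm1 ran from -1.34 to 1.78, so 17 reads could not show a 2-fold difference. When only full-length classes were counted, Cavin1 (1.31) and Dnm2 (2.21) were called and Dysf stood at 1.27, on 17 and 8 reads. That count called 1631 of 6808 genes.

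Reads of a gene fall into the classes of TALON, the program named in the files. Annotated models match a reference transcript junction by junction, new-combination models join known splice sites in a new way, and new-junction models hold a new splice site. These 3 are called full-length classes here, a name that does not mean that every read runs end to end. They held 17 and 8 Dysf reads, among them a 2-exon annotated model, Dysf-207 (404 bases, 0 and 2 reads). Over all classes, 13 and 4 Dysf reads had 54 exons or more. In replicate 1, 1 of these was in an incomplete model, a class defined next. Incomplete models hold part of a longer chain of junctions, and genomic models are unspliced pieces or carry intron sequence. Many incomplete Bin1 structures hold junctions absent from M21, so the longer chain is not always an annotated one. Full-length classes held 85.9% of the members' reads in replicate 1 and 63.5% in replicate 2, against 85.5% and 75.7% over all annotated genes.

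The full-length share was compared for the 6 members with at least 50 reads in each library. It was higher in replicate 1 in 4 of them by Fisher's exact test with Benjamini-Hochberg adjustment, against 746 of 1834 genes (40.7%) in that direction, 9 (0.491%) in the other and 755 (41.2%) in all. In Bin1 it was 91.2% (697 of 764 reads, 95% Wilson interval 89.0% to 93.0%) in replicate 1 and 74.2% (474 of 639, 70.6% to 77.4%) in replicate 2, with an adjusted p of 1.69e-16 in that exact test. In Cavin1 it was 62.7% (47 of 75) and 30.6% (22 of 72), exact adjusted p = 5.58e-04. In Dysf it was 26.2% (17 of 65) and 4.82% (8 of 166), exact adjusted p = 6.71e-05, and in Cavin4 97.8% (89 of 91) and 87.5% (56 of 64), exact adjusted p = 0.0415. Cav1, at 91.2% and 80.4% (exact adjusted p = 0.153), and Cav3, at 92.9% and 87.5% (0.405), did not pass. The Dysf share was thus the lowest of the 6 in each library. With genes of at least 20 reads included, Dnm2 passed as well, at 37 of 53 and 9 of 35 reads (exact adjusted p = 5.67e-04), and Cavin4 no longer did (0.0568). With genomic models left out, Bin1 alone of the 3 members that could be tested passed (697 of 732 and 474 of 526 reads, exact adjusted p = 0.00371).

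**Figure D2:**
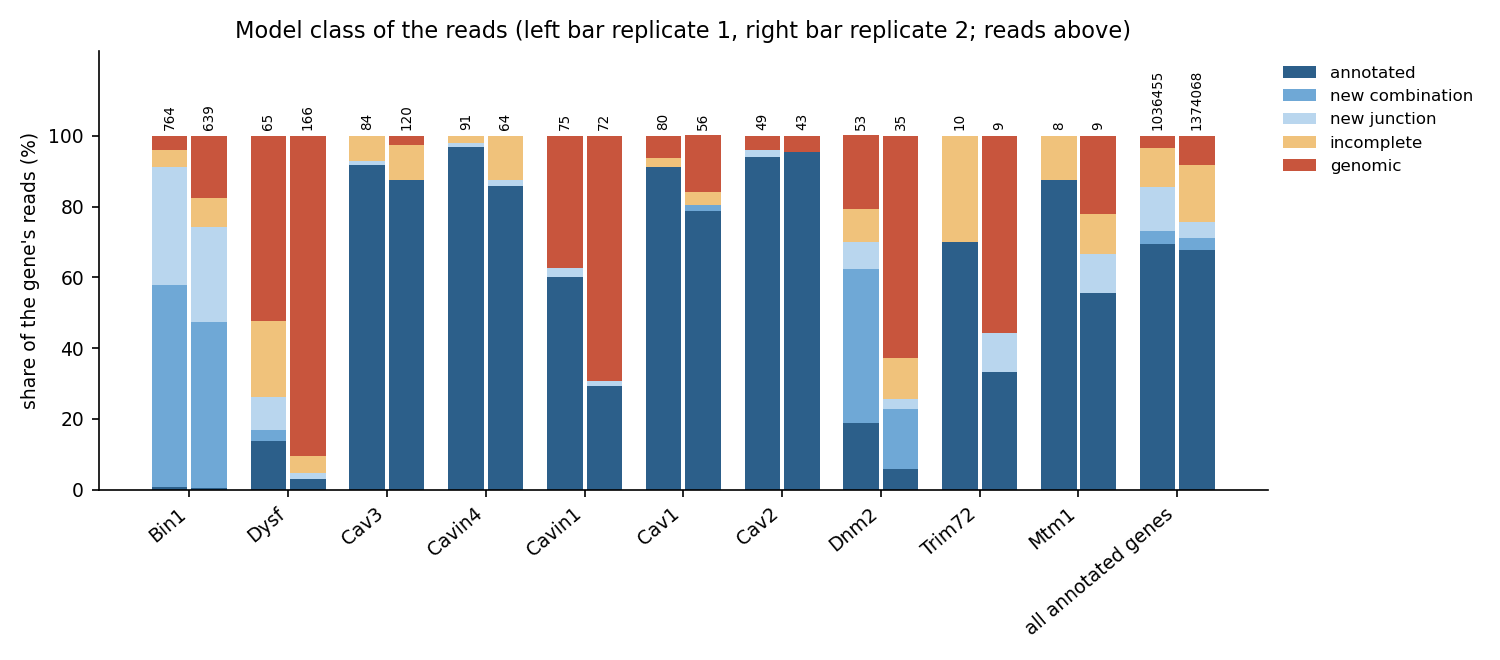
Share of each gene's reads in the 5 model classes, with replicate 1 as the left and replicate 2 as the right bar of each pair and the number of reads above. Genomic models (red) make up 52.3% and 90.4% of the Dysf reads, and new-combination and new-junction models make up most of the Bin1 reads.

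The genomic reads of Dysf, Bin1 and Dnm2 were mainly unspliced pieces near the 3′ end. For Dysf they were 1 model per library, 146 bases long with 34 reads in replicate 1 and 185 bases long with 150 reads in replicate 2, each ending at base 84211041. For Bin1 they were 1164 bases with 32 reads and 910 bases with 113 reads, or 4.19% and 17.7% of the gene. For Dnm2 a piece of 723 bases had 10 and 19 reads, with 2 further reads of replicate 2 in a piece of 196 bases, and for Cavin1 single-exon pieces between 91 and 1743 bases had 28 and 50 reads. The Cavin1 piece with the most reads lay at the 3′ end of the gene in each library, 1743 bases long with 22 reads in replicate 1 and 139 bases long with 29 reads in replicate 2, where another piece of 902 bases further upstream had 20. For the next test the leading structure of a gene was taken from all its models by summed reads, with the single-exon models as 1 group, so it can differ from the main spliced structure above. By Fisher's exact test its share differed in 3 of 6 members, against 672 of 1834 genes (36.6%). The single-exon group led in Dysf, at 52.3% and 90.4% of reads (exact adjusted p = 9.59e-09), and in Cavin1, at 37.3% and 69.4% (exact adjusted p = 6.04e-04), both higher in replicate 2 as in 221 genes (12.1%). For Cavin1 this repeats the test of the full-length share, since its single-exon reads are exactly those outside full-length classes. For Dysf they are most of those reads. The leading Bin1 structure was higher in replicate 1, at 55.4% and 46.0% (exact adjusted p = 0.00199), as in 451 genes (24.6%). Among full-length reads only, its share was 423 of 697 and 294 of 474, and the exact adjusted p was 1.00.

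Almost every Bin1 read that spans the muscle exon carried it. This exon of 45 bases (chr18:32423242-32423286, mm10) codes for a stretch that binds phosphoinositide lipids in the muscle form of amphiphysin 2. It was the 10th of 14 exons of the leading structure, between exons of 83 and 148 bases. Of reads that span it, 710 of 717 included it in replicate 1 (99.0%, 95% Wilson interval 98.0% to 99.5%) and 492 of 495 in replicate 2 (99.4%, 98.2% to 99.8%). The intervals of the libraries overlapped. It was present in 38 spliced structures of the gene, 10 of them in both libraries. The few reads without it followed 4 structures, chiefly Bin1-205, an annotated coding transcript of 13 exons with 4 and 3 reads. Bin1-206, the other annotated model with reads, had 1 and 0.

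None of the 6 Bin1 transcripts in GENCODE M21 holds this exon or either of its splice sites. Annotated models therefore made up only 5 and 3 of the 764 and 639 reads, and new-combination and new-junction models made up 90.6% and 73.7%. Over the 1834 genes that reached 50 reads in both libraries the median share of such models was 2.71% and 2.73%, and 18 and 28 genes, Bin1 included, were at or above the Bin1 share. The leading structure (423 and 294 reads) is classed in the files as a new combination of known sites although it uses those 2 sites. That was so for each of the 436 and 299 new-combination reads of Bin1, against 19.7% and 15.3% of the new-combination reads of all annotated genes.

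A second choice lies near the 3′ end. An annotated exon of 72 bases (chr18:32431671-32431742) was in 267 of 722 spanning reads in replicate 1 (37.0%, 33.5% to 40.6%) and in 177 of 506 in replicate 2 (35.0%, 31.0% to 39.2%). Taking both exons together, 444 of 716 reads in replicate 1 and 316 of 495 in replicate 2 held the 45-base exon alone (62.0% and 63.8%). Both exons were in 265 and 176 reads (37.0% and 35.6%). Neither was in 5 and 3 reads, and the 72-base exon stood alone in 2 and 0 reads. The 14-exon structure without the 72-base exon and the 15-exon structure with it (245 and 166 reads) together held 95.8% and 97.0% of the full-length Bin1 reads. Other optional exons were rare. An exon of 93 bases (chr18:32414945-32415037), which marks brain forms of the gene, was in 5 of 709 and 5 of 491 reads (0.705% and 1.02%). An exon of 129 bases (chr18:32426224-32426352) was in 6 of 722 reads in replicate 1 (0.831%) and in 0 of 506 in replicate 2, where the Wilson interval reaches 0.753%. Replicate 2 also held 18 reads, and replicate 1 held 6, of an incomplete 3-exon model of 3076 bases.

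**Figure D3:**
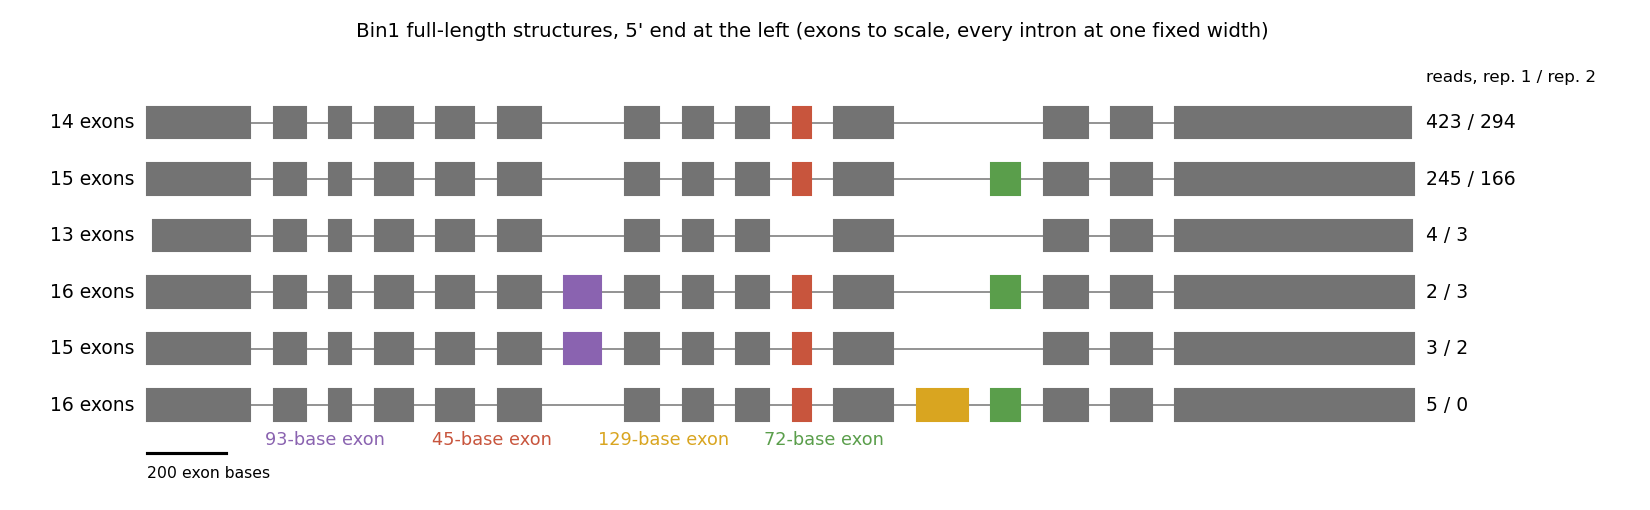
The 6 full-length Bin1 structures with the most reads, 5′ end at the left, with exons drawn to scale in bases and every intron at one fixed width, and reads in replicate 1 / replicate 2 at the right. The 45-base exon is in 5 of the 6, and the structures with 423 and 294 and with 245 and 166 reads differ by the 72-base exon.

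Dnm2 was spread over many structures. Its 42 and 13 spliced reads followed 28 structures, 20 of them with 1 read, and 5 were seen in both libraries. No spliced structure reached more than 11.3% of the reads in replicate 1, where a 21-exon new combination of 3044 bases had 6 reads against 1 in replicate 2. The 21-exon structure of 3528 bases had 4 and 3 reads, and structures of 3541 and 3473 bases had 4 and 0 reads each. Annotated chains were those of Dnm2-202 (5 and 0 reads), Dnm2-206 (3 and 1), Dnm2-212 (1 and 1) and Dnm2-201 (1 and 0). In most spanning reads the first of the 139-base exons was used: 33 of 37 reads in replicate 1 held it alone (89.2%), as did 9 of 10 in replicate 2. The second was alone in 2 and 1 reads, and 1 read of replicate 1 held both and 1 held neither.

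The 30-base exon of Dnm2, in 1 annotated transcript, was in a large share of the spanning reads. A short exon of this kind, enriched in muscle, has been described for dynamin 2. It was in 19 of 37 reads in replicate 1 (51.4%, 95% Wilson interval 35.9% to 66.6%) and in 7 of 10 in replicate 2 (70.0%, 39.7% to 89.2%), so the intervals overlapped. That transcript is Dnm2-208, 1 of 14 of the gene in M21, and no annotated model of these libraries held it (0 of 10 and 0 of 2 reads). The 12-base exon was in 6 of 37 reads in replicate 1 (16.2%) and in 1 of 10 in replicate 2, and only 1 read held it with the 30-base exon. A further exon of 33 bases (chr9:21487203-21487235), 126 bases after the 30-base exon and in no M21 transcript of Dnm2, was in 2 reads of each library, every one of which held the 30-base exon too. The last exon began at base 21506333 in 19 and 3 reads, 3 bases further on at 21506336 in 11 and 5, and at 21507423 in 10 and 4. The 3′ end of Dnm2 overlaps Tmed1 on the opposite strand by 207 bases.

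Dysf molecules were read whole only in a few cases. Of 65 reads in replicate 1 and 166 in replicate 2, 31 and 16 were spliced, and 13 and 4 had 54 exons or more. The median spliced read held 36 exons in replicate 1 and 15 in replicate 2. Along the 54 junctions of Dysf-204, 30 and 13 reads crossed the last intron, 13 and 4 the second and 5 and 4 the first. Reads that begin at a downstream first exon, counted below, cannot cross that first intron. In Bin1 the counts were 732 and 526 at the last junction, and 693 and 470 at the first. Dysf-204 had 4 and 3 reads, Dysf-202 had 4 and 0 reads and Dysf-210 had 1 and 0 reads. Dysf-204 and Dysf-202 begin at different first exons. Among reads with 54 exons or more the upstream first exon, ending at base 84009002, was in 5 and 4, and the downstream one, ending at 84019608, in 7 and 0.

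The optional exons of Dysf were counted in few reads. The 42-base exon was in 12 of 14 reads (85.7%, 60.1% to 96.0%) and 5 of 5 (100%, 56.6% to 100%). In replicate 1, 1 read skipped it and 1 held its bases within a longer exon of 1347 bases. The 63-base exon was in 5 of 23 reads (21.7%, 9.66% to 41.9%) and 1 of 8 (12.5%, 2.24% to 47.1%). The 93-base exon was in 2 of 13 reads (15.4%, 4.33% to 42.2%) and in 0 of 4, where the interval reaches 49.0%. The combination with the 42-base exon and neither of the others was in 9 of 12 reads in replicate 1 and in 3 of 4 in replicate 2. At this depth the libraries' intervals overlapped for each of the 3 exons.

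**Figure D4:**
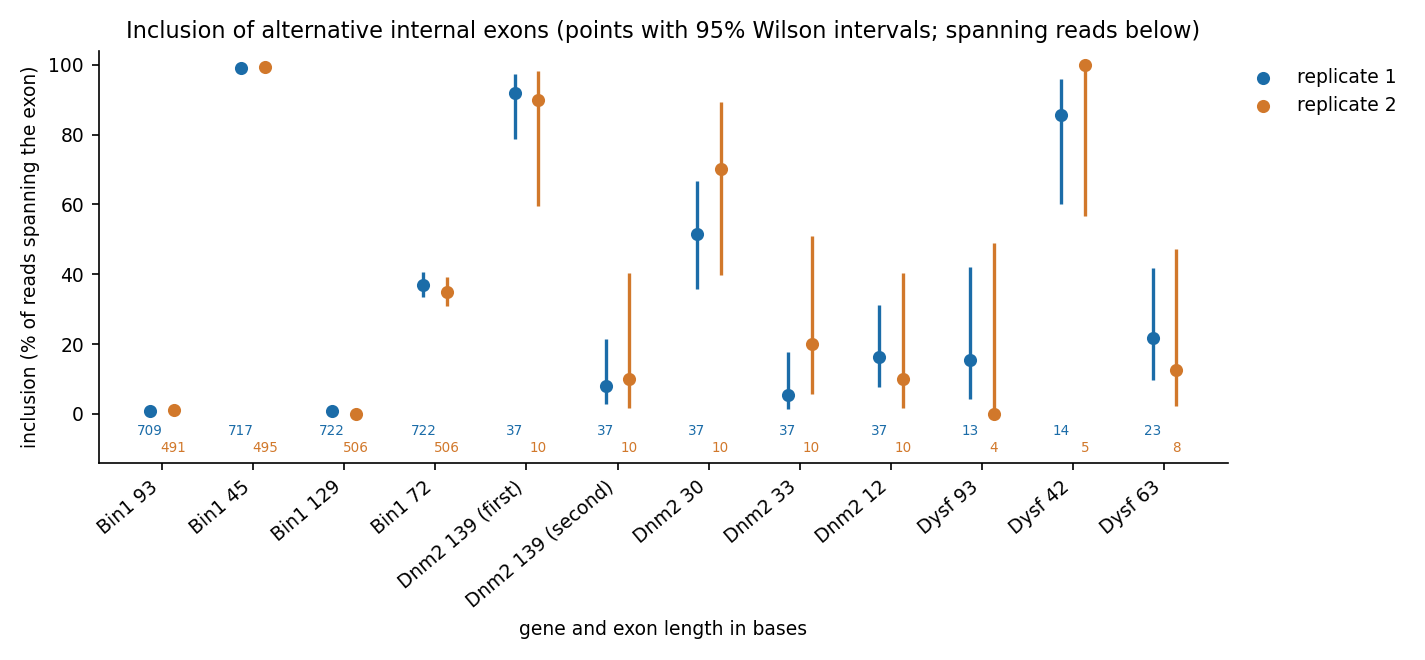
Inclusion of each optional exon, as a percent of the reads that span it, in replicate 1 (blue) and replicate 2 (orange), with 95% Wilson intervals and the number of spanning reads below. The Bin1 45-base exon lies at 99.0% and 99.4% and the 72-base exon at 37.0% and 35.0% with narrow intervals, while those of Dnm2 and Dysf are wide and overlap between the libraries.

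**Figure D5:**
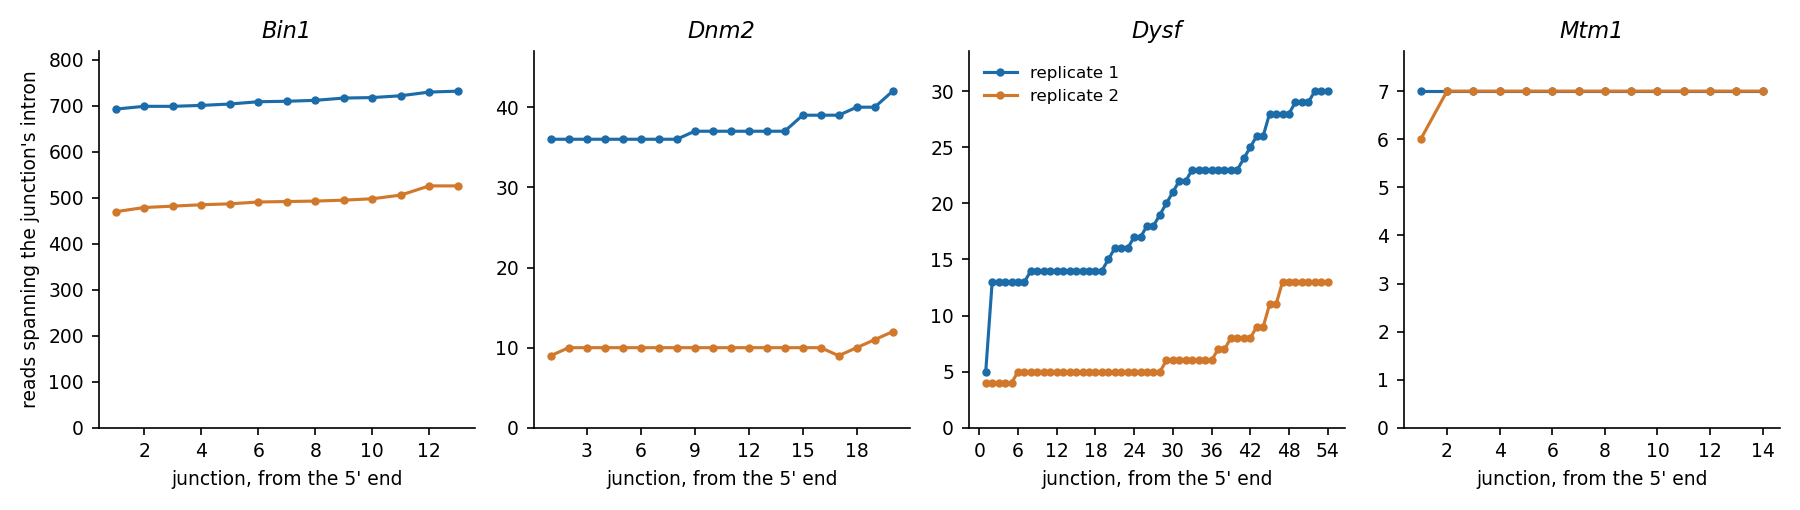
Reads that span each intron of the main spliced structure, numbered from the 5′ end, for Bin1, Dnm2, Dysf (the chain of Dysf-204) and Mtm1, in replicate 1 (blue) and replicate 2 (orange). Counts change little along Bin1 and Mtm1, while in Dysf they fall from 30 and 13 at the last junction to 13 and 4 at the second. The first Dysf junction has 5 and 4, and reads that begin at a downstream first exon cannot span it.

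Mtm1 had a single main form. Mtm1-203, with 15 exons and 3379 bases, had 7 of 8 reads in replicate 1 and 5 of 9 in replicate 2, out of 13 transcripts annotated for the gene. Replicate 1 held 1 further read, incomplete and unspliced, of 1643 bases. Replicate 2 held 1 further 15-exon read with a new junction, 1 incomplete read and 2 unspliced reads of 1126 bases. No read skipped an internal exon that another Mtm1 read included.

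The caveola genes have few exons, and the reads of Cav3, Cavin4 and Cav2 mostly followed a single annotated transcript. Cav3-201, with 2 exons, had 77 and 105 reads (91.7% and 87.5% of the gene), and an incomplete unspliced model of 736 bases had 6 and 12. Cavin4-201, with 2 exons, had 88 and 55 reads (96.7% and 85.9%), and replicate 2 held 8 reads of an incomplete unspliced model of 1538 bases. Cav2-201, with 3 exons, had 46 and 41 reads (93.9% and 95.3%). Cav1 was divided between its 2 starts: Cav1-201, with 3 exons and the upstream start codon, had 41 and 23 reads (51.2% and 41.1%), and Cav1-202, with 2 exons and the internal start codon shown above, had 28 and 19 reads (35.0% and 33.9%). A Cav1-201 molecule that was read only from within its second exon would carry the same junction as Cav1-202, so the counts of Cav1-202 are an upper limit. Cav1-205, with 4 exons, had 3 and 2 reads and Cav1-206 had 1 and 0. Unspliced genomic pieces had 5 reads in replicate 1 (2172 bases) and 9 in replicate 2 (2029 bases).

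Cavin1 reads did not mainly follow its coding transcript. Cavin1-201, the coding transcript of 3491 bases, had 18 and 3 reads (24.0% and 4.17%). Cavin1-202, of 658 bases and annotated as a processed transcript with no coding sequence, had 27 and 18 of the 75 and 72 reads. The single-exon pieces made up the rest but for 3 reads with new junctions. Trim72 reads were Trim72-202 (4 and 3 reads) and Trim72-201 (3 and 0), which carry the same coding length of 1431 bases, and 5 of the 9 reads of replicate 2 were 1 unspliced model of 1154 bases. The remaining reads were incomplete in replicate 1, unspliced (1147 bases, 2 reads) or of 4 exons (1 read), and 1 read of replicate 2 had a new junction.

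Genes that work with the members were counted from lists of known partners, with the same exact binomial test. Of 15 T-tubule and triad partners 12 could be tested and 0 were called, with 7 at an unadjusted p under 0.05 (all genes, 18.6% and 39.7%). The 2 of highest mean were Tcap, a Z-disc cap protein of titin near the tubules, with 4145 and 7064 CPM (log2 ratio -0.77), and Ryr1, the calcium release channel, with 726 and 469 CPM (0.63). The median over the list was 0.29, beside 0.28 over all genes. Tcap and Speg were called lower in replicate 1 under TMM and DESeq2 scaling, as were 842 and 875 of 8339 genes. From full-length classes only, 4 of 9 that could be tested were called higher in replicate 1 (Cacna1s, Jph1, Ryr1 and Synpo2), with a list median of 1.28, beside 1280 of 6808 genes and a median of 0.42. From full-length classes the caveola partners gave 6 of 9 and the repair partners, described next, 4 of 15, all higher in replicate 1.

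Of 10 caveola partners 9 could be tested, 4 were higher in replicate 1 by the call rule and 0 were lower (all genes, 12.9% and 5.76%). Their adjusted p in the exact binomial test lay between 1.66e-08 and 0.0206. The 4 were Flot2, a flotillin, with 138 and 60.4 CPM (log2 ratio 1.19), Pacsin2, a membrane-bending protein, with 51.1 and 21.8 CPM (1.22), and the caveola-neck ATPase Ehd2 with 37.6 and 18.2 CPM (1.04) and its relative Ehd1 with 40.5 and 18.9 CPM (1.09). Of 20 membrane repair partners 17 could be tested, and 5 were called higher in replicate 1 and 0 in replicate 2. Their adjusted p in that exact test lay between 3.03e-12 and 0.00724. They were the calcium-dependent membrane binders Anxa6 (218 and 99.0 CPM, 1.14) and Anxa11 (112 and 52.4 CPM, 1.09), the calpain subunits Capn1 (47.3 and 22.6 CPM, 1.06) and Capn2 (68.5 and 32.7 CPM, 1.06), and Pdcd6ip, an ESCRT partner (31.8 and 12.4 CPM, 1.34). The list medians were 0.55 and 0.46, beside 0.28 over all genes. All of these ratios kept their sign under TMM and DESeq2 scaling, but then no caveola partner and only Pdcd6ip among the repair partners was called. Over all genes 611 and 602 of 8339 were then called higher in replicate 1.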

How the data were processed

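Long-read RNA libraries of gastrocnemius from 2 male mice were used, 1 group with 2 replicates. The values are the authors' deposited counts of reads per transcript model in each library, not pooled, with the exons of each model on mm10 and GENCODE M21, per the file headers. TALON is named in the files, and no source used here names an aligner or a version. No value column belonged to another sample (0 such columns).

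Counts were summed per gene with Python 3.11.15, pandas 2.3.3 and SciPy 1.17.1, leaving out spike-ins and new genes. Tests are exact binomial or Fisher exact tests on reads, Benjamini-Hochberg adjusted over all genes tested. They were also run on simulated counts that held no variation between libraries beyond counting error. Such counts cannot show how the tests behave on real libraries. Intervals are 95% and cover counting error of reads only, not variation between animals or libraries. No molecular identifiers are recorded, so reads were taken as independent. Alternatives used edgeR 4.0.16 and DESeq2 1.42.0 for scaling. Models were matched between libraries by their junctions. Exon inclusion was counted among reads whose junctions span the exon.

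The members and lists were chosen with earlier results of these data known. All 10 members are named, with annotated models, models of at least 5% of a gene's reads in a library and optional exons. Partner lists are given as counts with their called genes, or the 2 of highest mean.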

Additional observations from a re-analysis of the deposited data

Results flagged for a closer look

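Reads of new, unannotated genes were found on the strand opposite to 6 of the members, above the limit of 3 reads. They are outside the counts given above. The strand is that of the deposited models.

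Cavin1 had 40 such reads in replicate 1 and 86 in replicate 2, beside 75 and 72 reads of the gene itself. The largest was an unspliced model of 2642 bases with 36 reads in replicate 1 (chr11:100955834-100958475, mm10) and of 2285 bases with 79 reads in replicate 2 (chr11:100956190-100958474). Its upper end in replicate 1, base 100958475, is also the upper end of the unspliced Cavin1 piece of 1743 bases in that library.

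Dysf had 22 and 20 such reads, of which the largest model had 16 and 8 and lay 166567 and 169104 bases from the 3′ end of the gene. Trim72 had 7 and 17, each in 1 unspliced model of 351 and 360 bases that touches the gene by 1 base at its end. In replicate 2 the upper end of that model, base 128011392, is also the upper end of the unspliced Trim72 model of 1154 bases with 5 reads. It lies past the annotated end of the gene, base 128011033. Cavin4 had 4 and 10, Dnm2 had 3 and 8, and Bin1 had 0 and 7. For Bin1 and Dnm2 only replicate 2 passed the limit. Mtm1 had 0 and 2 reads, and Cav1, Cav2 and Cav3 had 0.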

How the results depend on the processing

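No paired analysis was possible because the series has 1 group. The limits are depth and single-exon reads: 6 of the 10 members had under 50 full-length reads in each library. The number of genes called was 2542 with no fold threshold, beside 1555. The number of members called was 0, and it was 1 under TMM and 1 under DESeq2 scaling (Dysf), 2 from full-length classes only (Cavin1 and Dnm2) and 5 with no fold threshold. Over all genes 1453 and 1477 of 8339 were called under TMM and DESeq2 scaling, and 1631 of 6808 from full-length classes only. The 2542 with no fold threshold were of the same 8339. With spliced models only, an alternative chosen after seeing the data, 3 members were called (Cavin1, Dnm2 and Dysf), beside 1603 of 6922 genes. The log2 ratio of Dysf turned from -0.94 to 1.27 with full-length classes and to 1.20 with spliced models only, by leaving out its unspliced pieces. That of Mtm1 turned from 0.25 to -0.01 (TMM) and -0.02 (DESeq2). No other member changed sign under the alternatives. The class difference was found in 426 genes with genomic models left out, beside 755 (25.9% of 1644 and 41.2% of 1834). The leading-structure difference was found in 45 genes from full-length classes only, beside 672 (3.12% of 1443 and 36.6% of 1834); the cause was not tested. Leaving out a replicate gives the other library's value and, with 2 libraries, tests nothing. With full-length classes only, and their own smaller totals in CPM, the mean levels of Dysf (13.4), Trim72 (5.87), Cavin1 (37.1) and Cav3 (94.5) moved by more than 1 SD. From annotated models alone the Bin1 45-base and Dnm2 30-base exons had an inclusion of 0, since no annotated model with reads holds them.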

Other observations

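The partner lists hold 8 relatives of the members, singled out after their values were seen. Amph, the gene of amphiphysin 1 and relative of Bin1, had 0 reads in each library, which allows up to 2.89 and 2.18 CPM, while Bin1 had 737 and 465 CPM. Of the dynamins, Dnm1 had 0 reads in each library and Dnm3 had 3 and 8 reads, against 53 and 35 reads of Dnm2. Myof (myoferlin), the ferlin relative of Dysf, had 1 and 0 reads, against 65 and 166 reads of Dysf. The myotubularin relatives stood otherwise: Mtmr14 had 25.1 and 21.8 CPM and Mtmr12 had 8.68 and 2.18 CPM, beside 7.72 and 6.55 CPM of Mtm1. Among the cavins, Cavin2 had 123 and 84.4 CPM and Cavin3 had 28.9 and 34.2 CPM, beside 72.4 and 52.4 CPM of Cavin1 and 87.8 and 46.6 CPM of Cavin4.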
